A study of Rattus norvegicus with 12 samples.

Results

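The genes described here encode voltage-gated sodium and calcium channels, the hyperpolarization-activated HCN channels and 3 branches of the TRP cation channels. They were chosen by a rule on the gene symbol, set with earlier results of these data known. The rule took probe sets with 1 gene symbol. That symbol began with Scn and a digit, or with Cacna, Cacnb or Cacng. Otherwise it began with Hcn and a digit from 1 to 4, or with Trpc, Trpm or Trpv and a digit. Each gene was read by its brightest probe set. Of the 14217 genes named on the array, 55 met this rule, through 76 probe sets. The signal of 34 of them lay above the filter for dim probe sets (a mean over all 12 arrays above 17.4) and these were tested, while 21 lay below it. Trpc4ap met the rule through its name only, since it encodes a protein that binds TRPC4 and not a channel.

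Voltage-gated channels turn a change of membrane potential into a current. Sodium channel alpha subunits form the pore that carries the upstroke of the action potential, and beta subunits tune its gating and place it in the membrane. Calcium channel alpha1 subunits form the pore that couples firing to transmitter release and to signalling in the cell, beta and alpha2delta subunits carry the pore to the surface, and several gamma subunits act as auxiliary proteins of AMPA-type glutamate receptors. HCN channels open on hyperpolarization and help set resting excitability. TRP channels are cation channels gated by lipids, calcium, temperature or receptors coupled to phospholipase C.

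Expression was measured on rat whole-genome arrays in 2 brain structures of male Wistar rats, the nucleus accumbens and the anterior cingulate cortex. Every rat had self-administered cocaine (0.3 mg/kg in each 40 µl injection) in 4 daily sessions of 2 h and was killed 2 h after the last one, so no group was free of cocaine. The rats were treated with vehicle or with a compound the labels call TsA, a usual abbreviation of trichostatin A, which inhibits histone deacetylases. Each of the 4 groups (cortex with vehicle, cortex with TsA, accumbens with vehicle, accumbens with TsA) had 3 arrays, and each array carried the RNA of 2 pooled rats. Age, dose and route of TsA are not given in the labels, and they do not say if 1 rat could supply both structures.

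The signal is a linear intensity that had been scaled to the same 2% trimmed mean, 100.03, on every array. The array medians lay between 26.8 and 29.2 on the cortex arrays and between 31.2 and 33.1 on the accumbens arrays. The structures matched their labels: of 13 tested markers of striatal projection neurons, 13 were higher in the accumbens, with a summed signal of 1374 to 1595 on the cortex arrays and 13160 to 16650 on the accumbens arrays, and none was at 0. Of 11 tested markers of cortical glutamatergic neurons, 10 were lower in the accumbens, with sums of 7130 to 7736 and 2479 to 2961. Washing took place in 3 batches of 4 arrays. The cortex vehicle group shared batch 1 with the first cortex TsA array, and the accumbens TsA group shared batch 3 with the third accumbens vehicle array. Batch 2 was split evenly between structures: it took the remaining cortex TsA arrays, 2 and 3, and the remaining accumbens vehicle arrays, 1 and 2.

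The first comparison asks which channel genes differ between the accumbens and the cingulate cortex over both treatments, with 6 arrays in each structure. The sodium channel beta subunit gene Scn4b stood far above all others, at 3.09 ± 0.11 (SE) on the log2(signal + 16) scale, and the alpha2delta gene Cacna2d3 followed at 1.13 ± 0.08. On this scale Trpc6, Cacng2 and Trpv2 had the lowest values, an order that changes with the added constant, at -1.16 ± 0.09, -1.13 ± 0.09 and -1.05 ± 0.07. With limma and Benjamini-Hochberg adjustment over 18625 probe sets, 10 of the 34 tested genes were higher in the accumbens, 10 were lower and 14 did not pass the threshold of 0.05 on the adjusted p. That is 58.8% of the tested genes and 36.4% of the 55, beside 44.8% of all probe sets tested. Of all probe sets called, 54.5% were higher, or 44.0% after median centring of the arrays. A difference of at least 0.5 that also passed was found in 9 of the tested genes, beside 20.1% of all probe sets. The median difference of the tested genes was -0.01, and that of all probe sets 0.04. The 6 arrays of one structure lay wholly above or below the 6 of the other for 14 tested genes, 7 higher and 7 lower, beside 27.1% of all probe sets.

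**Figure D1:**
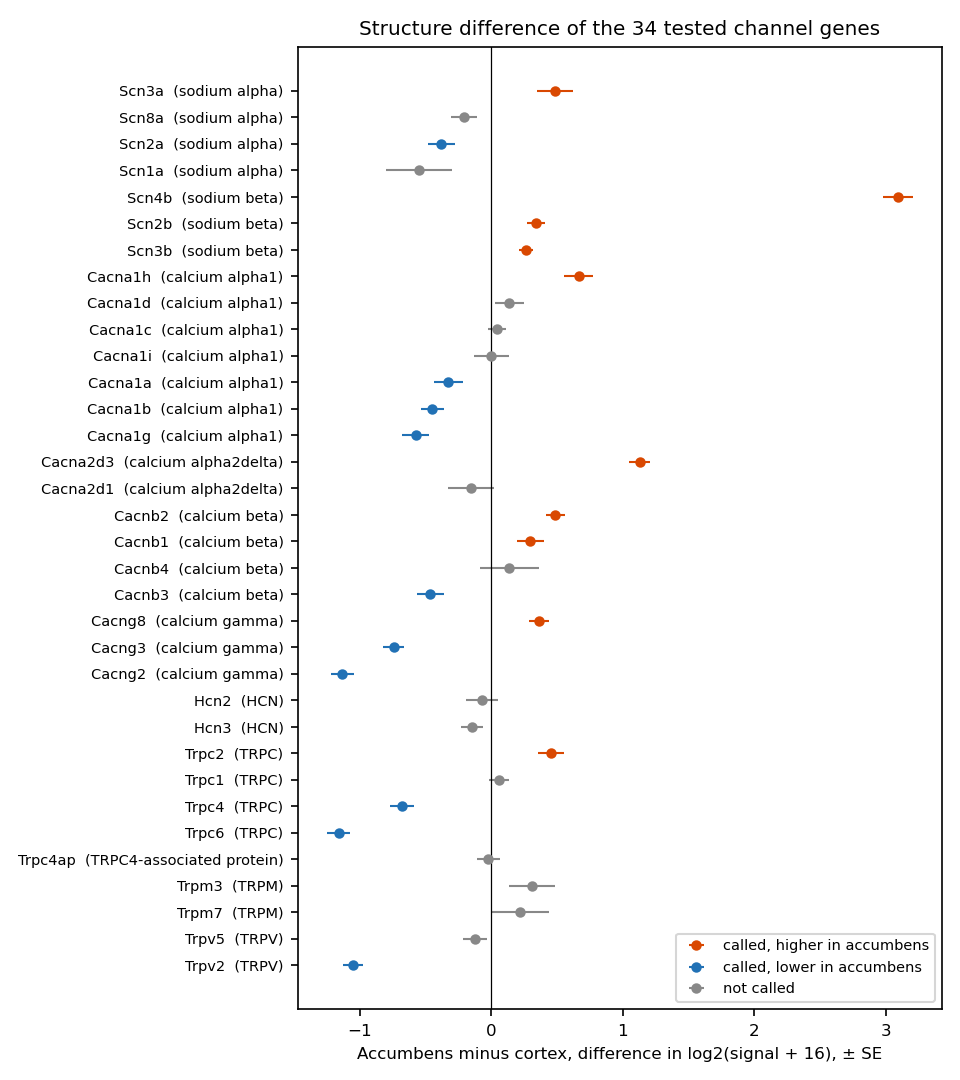
Difference between accumbens and cortex for the 34 tested channel genes, grouped by family, on the log2(signal + 16) scale with its standard error (6 arrays in each structure). Orange points passed the adjusted threshold as higher in the accumbens, blue as lower, and grey did not pass. Scn4b sits alone at 3.09, and the other genes lie between -1.16 and 1.13.

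In bulk tissue such as this, fewer cells of a type and less RNA per cell cannot be told apart. Beside the neuronal markers above, 11 of 11 tested oligodendrocyte markers were higher in the accumbens, with summed signals of 5918 to 7154 in the cortex and 14410 to 17970 in the accumbens. Of 7 oligodendrocyte precursor markers, 6 were higher, with sums of 959 to 1109 and 1735 to 2257, and none was lower. The precursor list holds Olig1, Olig2 and Sox10, which are not confined to precursors. Of 8 markers of meninges and fibroblasts, 8 were lower, with sums of 431 to 1036 in the cortex and 234 to 306 in the accumbens. Interneuron markers were higher for 5 and lower for 3 of 10, with sums of 5835 to 6513 and 5194 to 6386. The interneuron list holds Gad1, Gad2 and Slc32a1, which are not confined to interneurons. Markers of the septum, pallidum and diencephalon were higher for 4 and lower for 2 of 7, with sums of 280.4 to 323 and 571 to 782; that list holds Trpc4. Astrocyte markers were higher for 1 and lower for 3 of 9, with sums of 11680 to 13040 and 11520 to 12460. For microglia 1 of 10 was lower and none higher, with sums of 1029 to 1364 and 1144 to 1465. No marker of endothelium and mural cells (10 tested) or of blood (2 tested) passed. The part of any of these lists in the channel results was not tested.

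Scn4b encodes the beta4 subunit, which is linked to the resurgent sodium current of fast-firing neurons. Its signal was 146, 208 and 136 on the cortex vehicle arrays, 173, 165 and 237 on the cortex TsA arrays, 1463, 1742 and 1718 on the accumbens vehicle arrays and 1716, 1655 and 1402 on the accumbens TsA arrays. Every accumbens array was thus far above every cortex array. Cortex arrays averaged 178 ± 38.4 (SD, n = 6) and accumbens arrays 1616 ± 146, a ratio of 9.10 between mean signals, and the adjusted p from limma was 2.71e-10. With the wash batch as a block the difference was 2.90, and within batch 2, which sets accumbens vehicle against cortex TsA arrays, it was 2.91. Both fits rest on batch 2, the only batch that held both structures. When the wash batch is a block, 2 single arrays also enter, cortex TsA array 1 and accumbens vehicle array 3. When any single array was left out the Scn4b difference stayed between 3.04 and 3.18.

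The other beta subunit genes, Scn2b and Scn3b, which encode beta2 and beta3, were also higher in the accumbens but by far less. Scn2b lay between 793 and 932 in the cortex (median 839) and between 955 and 1204 in the accumbens (median 1103), at 0.34 ± 0.07 with an adjusted p of 0.00105 from limma. Scn3b lay between 698 and 795 in the cortex (median 758) and between 855 and 976 in the accumbens (median 902), at 0.26 ± 0.06 with an adjusted p of 0.00158. The structures did not overlap for either gene. Second probe sets gave 0.23 for Scn2b and 0.45 for Scn3b, both past the threshold. Scn2b did not pass with the wash batch as a block (0.13, adjusted p = 0.481) or within batch 2 (0.22, adjusted p = 0.225). Scn3b passed with the block (0.38) and did not within batch 2 (0.28, adjusted p = 0.115).

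Scn2b and Scn4b are next to each other on chromosome 8 in the RefSeq annotation, with 0 protein-coding genes between them. Their promoter windows, 250 bases before to 50 bases after the annotated start, are shown because 2 neighbouring genes of 1 family were both higher in the accumbens, by very different amounts. The windows of Cacna2d3 and Trpc6, the genes with the largest difference in each direction after Scn4b on the log2(signal + 16) scale, are shown for comparison. All are 300 bases from RefSeq on build GRCr8, written 5′ to 3′ on the gene's own strand: Scn4b at chr8:54343623-54343922 (plus strand), Scn2b at chr8:54322133-54322432 (plus), Cacna2d3 at chr16:4918850-4919149 (minus) and Trpc6 at chr8:14043966-14044265 (plus). Capitals mark a match, on either strand, to the CRE core TGACG or the GC box GGGCGG. An AP-1 site, TGANTCA, was searched as well and had no match in these 4 windows.
Scn4b: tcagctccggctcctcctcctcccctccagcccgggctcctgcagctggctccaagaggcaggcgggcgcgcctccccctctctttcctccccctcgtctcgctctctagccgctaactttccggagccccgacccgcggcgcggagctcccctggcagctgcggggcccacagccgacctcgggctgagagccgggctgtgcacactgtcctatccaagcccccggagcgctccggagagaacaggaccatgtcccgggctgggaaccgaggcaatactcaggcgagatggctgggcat
Scn2b: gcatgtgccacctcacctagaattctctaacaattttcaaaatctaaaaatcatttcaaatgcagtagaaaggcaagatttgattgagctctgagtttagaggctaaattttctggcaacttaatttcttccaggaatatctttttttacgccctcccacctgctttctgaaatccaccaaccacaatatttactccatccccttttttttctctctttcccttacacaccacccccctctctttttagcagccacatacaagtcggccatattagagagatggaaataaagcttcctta
Cacna2d3: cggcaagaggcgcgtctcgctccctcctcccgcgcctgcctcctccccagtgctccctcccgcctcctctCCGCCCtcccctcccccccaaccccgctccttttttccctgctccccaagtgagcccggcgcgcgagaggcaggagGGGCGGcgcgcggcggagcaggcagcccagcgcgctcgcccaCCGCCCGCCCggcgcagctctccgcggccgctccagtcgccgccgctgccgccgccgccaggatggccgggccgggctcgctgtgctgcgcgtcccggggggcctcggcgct
Trpc6: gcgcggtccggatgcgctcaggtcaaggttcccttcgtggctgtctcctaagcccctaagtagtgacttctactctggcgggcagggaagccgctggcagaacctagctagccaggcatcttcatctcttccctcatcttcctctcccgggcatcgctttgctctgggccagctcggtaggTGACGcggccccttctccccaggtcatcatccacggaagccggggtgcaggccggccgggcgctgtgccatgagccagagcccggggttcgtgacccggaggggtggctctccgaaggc

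G and C made up 70.0% of the Scn4b window, 39.0% of the Scn2b window, 79.3% of the Cacna2d3 window and 65.3% of the Trpc6 window, beside a median of 51.7% over all promoter windows. The Cacna2d3 window held 4 GC boxes, 2 of which overlap each other, and the Trpc6 window held 1 CRE core. None of the searched letters stood in the Scn4b and Scn2b windows, which says nothing of the factors that bind there. Of 33469 rat promoter windows, 21.2% hold the CRE core, 33.1% the GC box and 7.33% the AP-1 site. Windows were found for 42 of the 55 genes, 46 in number, and the first of each gene was read. Of these 42, 10 (23.8%) held the CRE core, 18 (42.9%) the GC box and 1 (2.38%) the AP-1 site. The shares over all windows count every window of a gene, so the units differ.

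Sodium channel alpha subunits did not move as a family. Of 9 genes, 4 were tested: Scn3a was higher in the accumbens, Scn2a was lower, and Scn1a and Scn8a did not pass. Scn3a, which encodes Nav1.3, lay between 57.6 and 112 in the cortex (median 92.3) and between 97.0 and 157 in the accumbens (median 128), at 0.48 ± 0.14 with an adjusted p of 0.0112 from limma. The structures overlapped, since accumbens vehicle array 3 lay within the cortex range. The difference passed with the wash block (0.86) and within batch 2 (0.61).

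Scn2a, which encodes Nav1.2, the main alpha subunit of unmyelinated axons, lay between 357 and 553 in the cortex (median 519) and between 287 and 435 in the accumbens (median 371), with overlap between the structures, at -0.38 ± 0.10 with an adjusted p of 0.00951 from limma. With the wash block the Scn2a difference was -0.02 (adjusted p = 0.964), and within batch 2 it was -0.36 (adjusted p = 0.0852). Scn1a, which encodes Nav1.1 of fast-spiking interneurons, spread widely, from 110 to 330 in the cortex (median 199.8) and from 83.5 to 265 in the accumbens (median 123), and its difference of -0.55 ± 0.25 did not pass (adjusted p = 0.0916). Without accumbens vehicle array 1 it was -0.75 with an adjusted p of 0.0110, and with the wash block 0.08. Scn8a, which encodes Nav1.6 of the axon initial segment, was dim, averaging 24.2 ± 5.64 (SD, n = 6) on cortex and 18.7 ± 2.60 on accumbens arrays, and its difference of -0.21 ± 0.10 did not pass (adjusted p = 0.103). It passed after median centring (-0.27, adjusted p = 0.0433 from limma) and after quantile normalization (-0.32, adjusted p = 0.0160).

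The remaining alpha genes, Scn4a of muscle, Scn7a, and Scn9a, Scn10a and Scn11a of sensory neurons, lay below the filter, with mean signals of at most 13.1 in both structures. Scn9a reached 39.4 on accumbens vehicle array 1 and 11.8 or less on the other 11 arrays. Scn3a and Scn2a are neighbours on chromosome 3, as are Scn1a, Scn9a and Scn7a, and the neighbours Scn3a and Scn2a differed between the structures in opposite directions.

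Among the 10 calcium channel alpha1 genes, 7 were tested, of which 1 was higher and 3 were lower in the accumbens. Cacna1h, which encodes the low-threshold channel Cav3.2, lay between 50.3 and 82.9 in the cortex (median 67.3) and between 90.4 and 135 in the accumbens (median 119), at 0.66 ± 0.11 with an adjusted p of 0.000234 from limma. Its structures did not overlap. A second, dim probe set gave -0.06, and the adjusted p was 0.138 with the wash block (0.56) and 0.0505 within batch 2 (0.65). Cacna1g, which encodes the related Cav3.1, went the other way, from 29.3 to 42.4 in the cortex (median 38.6) and from 12.2 to 26.7 in the accumbens (median 20.9), at -0.58 ± 0.10 with an adjusted p of 0.000511 from limma. It passed with the block (-0.74) and within batch 2 (-0.64), and the structures did not overlap. The third low-threshold gene, Cacna1i, did not pass at 0.00 ± 0.13, with signals of 12.3 to 29.7 over all arrays.

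The genes of the presynaptic channels were both lower in the accumbens. Cacna1b, which encodes the N-type pore, lay between 169 and 223 in the cortex (median 209) and between 129 and 166 in the accumbens (median 142), without overlap, at -0.45 ± 0.08 with an adjusted p of 0.000745 from limma. It did not pass with the wash block (-0.26, adjusted p = 0.338) or within batch 2 (-0.41, adjusted p = 0.0828), and a second probe set gave -0.16, which did not pass. Cacna1a, which encodes the P/Q-type pore, lay between 28.7 and 45.1 in the cortex and between 22.3 and 35.9 in the accumbens, with overlap, at -0.33 ± 0.11 with an adjusted p of 0.0270.

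Of the other 4 probe sets of Cacna1a, 1 passed in the same direction (-0.58) and 3 gave 0.04, 0.03 and 0.16, the last 2 of them dim. The Cacna1a call was lost when any of 7 arrays was left out (cortex TsA 2 and 3, cortex vehicle 3, accumbens TsA 1 and 2, accumbens vehicle 1 and 2), with differences of -0.31 to -0.27 and adjusted p of 0.0528 to 0.0722. It passed with the wash block (-0.76) and within batch 2 (-0.56). The L-type genes did not pass: Cacna1c averaged 87.4 ± 7.77 (SD, n = 6) on cortex and 90.5 ± 4.81 on accumbens arrays (0.05 ± 0.07, adjusted p = 0.629), and Cacna1d was 52.8 ± 3.85 and 60.5 ± 12.5 (0.14 ± 0.11, adjusted p = 0.326). Cacna1d passed without accumbens vehicle array 3 (0.24, adjusted p = 0.0177) and with the wash block (0.54). Cacna1e, Cacna1f of retina and Cacna1s of skeletal muscle were below the filter.

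The alpha2delta genes parted. Cacna2d3 was measured at 340, 302 and 315 on the cortex vehicle arrays and at 384, 375 and 399 on the cortex TsA arrays. In the accumbens it was 863, 847 and 653 with vehicle and 825, 843 and 712 with TsA. The structures were well apart, and the 6 accumbens arrays averaged 791 ± 86.4 (SD) against 352 ± 39.3, with an adjusted p of 1.02e-07 from limma. The difference was 1.38 with the wash block and 1.11 within batch 2. Cacna2d1, which encodes the subunit bound by gabapentin, ranged from 240.1 to 565 in the cortex (median 422) and from 250.4 to 462 in the accumbens (median 352), and its difference of -0.15 ± 0.18 did not pass (adjusted p = 0.507).

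All 4 beta subunit genes were tested. Cacnb2 was higher in the accumbens, between 133 and 162 in the cortex (median 146) and between 194 and 231 in the accumbens (median 210.0), without overlap, at 0.49 ± 0.07 with an adjusted p of 9.12e-05 from limma. Its other probe sets gave 0.68, which passed, and 0.14, which did not. Cacnb2 did not pass with the wash block (0.48, adjusted p = 0.0616) and did within batch 2 (0.49). Cacnb3, another cytoplasmic beta subunit, was lower, between 299 and 433 in the cortex (median 401) and between 231 and 305 in the accumbens (median 269), at -0.46 ± 0.10 with an adjusted p of 0.00253 from limma. Cacnb3 passed with the block (-0.83) and within batch 2 (-0.69), although cortex vehicle array 1 lay within the accumbens range.

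Cacnb1 was higher at 0.30 ± 0.10 (adjusted p = 0.0296 from limma), with signals of 133 ± 10.9 (SD, n = 6) on cortex and 168 ± 27.0 on accumbens arrays. That call was lost without any of 6 arrays (cortex TsA 1 and 3, cortex vehicle 2, accumbens TsA 2 and 3, accumbens vehicle 3), at 0.22 to 0.29 with adjusted p of 0.0515 to 0.0687, and the difference turned to -0.09 with the wash block. Median centring also ended the call (0.24, adjusted p = 0.0736). A second probe set of Cacnb1 gave 0.09. Cacnb4 did not pass at 0.14 ± 0.22 (adjusted p = 0.654). Its signal went from 10.5 to 51.7 in the cortex and from 15.4 to 63.6 in the accumbens, so its arrays of 1 structure differed more than the structures did.

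The gamma genes that encode auxiliary proteins of AMPA receptors held 2 of the larger reductions in the accumbens. Cacng2, which encodes stargazin, was 314, 351 and 355 on the cortex vehicle arrays and 369, 368 and 390.0 on the cortex TsA arrays. In the accumbens it was 125, 158 and 156 with vehicle and 144, 153 and 197 with TsA. All accumbens arrays lay below all cortex arrays, at 155.5 ± 23.8 (SD, n = 6) against 358 ± 25.6, with an adjusted p of 2.34e-07 from limma. A second, dimmer probe set gave -0.24 (adjusted p = 0.0989), while the wash block gave -1.25 and batch 2 gave -1.34 for the first.

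Cacng3 lay between 399 and 553 in the cortex (median 441) and between 226 and 294 in the accumbens (median 269.9), without overlap, at -0.74 ± 0.08 with an adjusted p of 5.91e-06 from limma. It passed with the wash block (-0.63) and within batch 2 (-0.61). Cacng8, which encodes the related protein gamma-8, was higher instead, between 55.1 and 68.4 in the cortex (median 58.2) and between 70.8 and 92.9 in the accumbens (median 80.1), at 0.36 ± 0.08 with an adjusted p of 0.00141. It did not pass with the block (0.46, adjusted p = 0.0725) or within batch 2 (0.40, adjusted p = 0.0918). The remaining 5 gamma genes, Cacng1 of muscle and Cacng4, Cacng5, Cacng6 and Cacng7, were below the filter. Cacng8 is flanked by Cacng6 and Cacng7 on chromosome 1 with 0 protein-coding genes between them.

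With the deposited scaling neither tested HCN channel gene passed. Hcn2 ranged from 64.4 to 113 in the cortex (median 87.3) and from 68.5 to 98.0 in the accumbens (median 76.8), at -0.07 ± 0.12 (adjusted p = 0.663 from limma). Hcn3 ranged from 21.3 to 36.5 and from 18.4 to 26.1, at -0.15 ± 0.08 (adjusted p = 0.172), but it passed as lower after quantile normalization of the arrays (-0.26, adjusted p = 0.0188). Hcn4, best known from the pacemaker of the heart, was below 1 on every array.

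Among the TRPC genes, Trpc6, which encodes a channel opened by diacylglycerol, was lower in the accumbens, at -1.16 ± 0.09 on the log2(signal + 16) scale. Its signal was 69.0, 46.3 and 47.4 on the cortex vehicle arrays, 55.3, 50.4 and 57.9 on the cortex TsA arrays, 15.6, 15.6 and 15.4 on the accumbens vehicle arrays, and 16.3, 15.8 and 13.2 on the accumbens TsA arrays. The accumbens arrays were all below the filter's limit of 17.4 and the cortex arrays all above it. Trpc6 thus passed the filter, and came to be tested, only through its cortex signal. The adjusted p was 1.85e-07 from limma, but with signals this low the size of the difference depends on the added constant. It was -1.75 with a constant of 1 and -0.575 with a constant of 64, where Cacng2 gave -1.21 and -0.95, so the order of these genes is not fixed. The wash block gave -1.14 and batch 2 gave -1.15.

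Trpc4, a channel of the lateral septum and cortex, was also lower in the accumbens, from 33.1 to 42.4 in the cortex (median 39.3) and from 11.2 to 23.3 in the accumbens (median 18.8), without overlap, at -0.68 ± 0.09 with an adjusted p of 5.01e-05 from limma. It passed within batch 2 (-0.77) and not with the block (-0.63, adjusted p = 0.0642). Trpc2, which in rodents serves pheromone sensing in the vomeronasal organ, was higher in the accumbens, from 45.3 to 57.7 in the cortex (median 50.8) and from 53.4 to 91.3 in the accumbens (median 77.8), at 0.46 ± 0.10 with an adjusted p of 0.00174. It did not pass with the block (0.14, adjusted p = 0.630) or within batch 2 (0.34, adjusted p = 0.231). Trpc1 did not pass at 0.06 ± 0.08 (101 ± 7.90 in the cortex and 106 ± 9.14 in the accumbens, SD, n = 6). Trpc5 was below the filter, and Trpc4ap, the adaptor, gave -0.02 ± 0.09.

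Trpv2, a calcium-permeable channel studied in heat and mechanical sensing, was 67.8, 78.8 and 72.0 on the cortex vehicle arrays and 64.1, 63.996 and 55.8 on the cortex TsA arrays. On the accumbens arrays it was 16.1, 20.4 and 22.8 with vehicle and 29.9, 26.3 and 29.7 with TsA. No array of 1 structure entered the range of the other, and the adjusted p was 1.19e-07 from limma. The ratio of mean signals was 2.77, and the log2 difference was -1.45 with an added constant of 1 and -0.57 with 64. The difference was -1.12 with the wash block and -1.15 within batch 2. Trpv5, which encodes an epithelial calcium channel, did not pass at -0.12 ± 0.09 (17.4 to 25.7 in the cortex and 14.2 to 24.4 in the accumbens), and passed after quantile normalization (-0.24, adjusted p = 0.0390 from limma). Trpv1, Trpv4 and Trpv6 were below the filter.

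The TRPM genes that were tested, Trpm3 and Trpm7, did not pass. Trpm3 ranged from 11.0 to 25.1 in the cortex (median 18.1) and from 13.1 to 55.4 in the accumbens (median 24.3), at 0.31 ± 0.18 (adjusted p = 0.177 from limma). Trpm7, which encodes a channel fused to a kinase, ranged from 33.5 to 108 in the cortex (median 73.2) and from 44.1 to 157 in the accumbens (median 80.1), at 0.22 ± 0.22 (adjusted p = 0.452). Both passed with the wash block, at 1.08 and 1.19, and neither within batch 2, at 0.67 and 0.41. The block values also rest on cortex TsA array 1 and accumbens vehicle array 3, each alone for its group in its batch. For both genes the first was the highest cortex array (25.1 and 108) and the second the lowest accumbens array (13.1 and 44.1). Trpm3 also passed without accumbens vehicle array 3 (0.46, adjusted p = 0.0164). Trpm1, Trpm4 and Trpm8 lay below the filter.

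**Figure D2:**
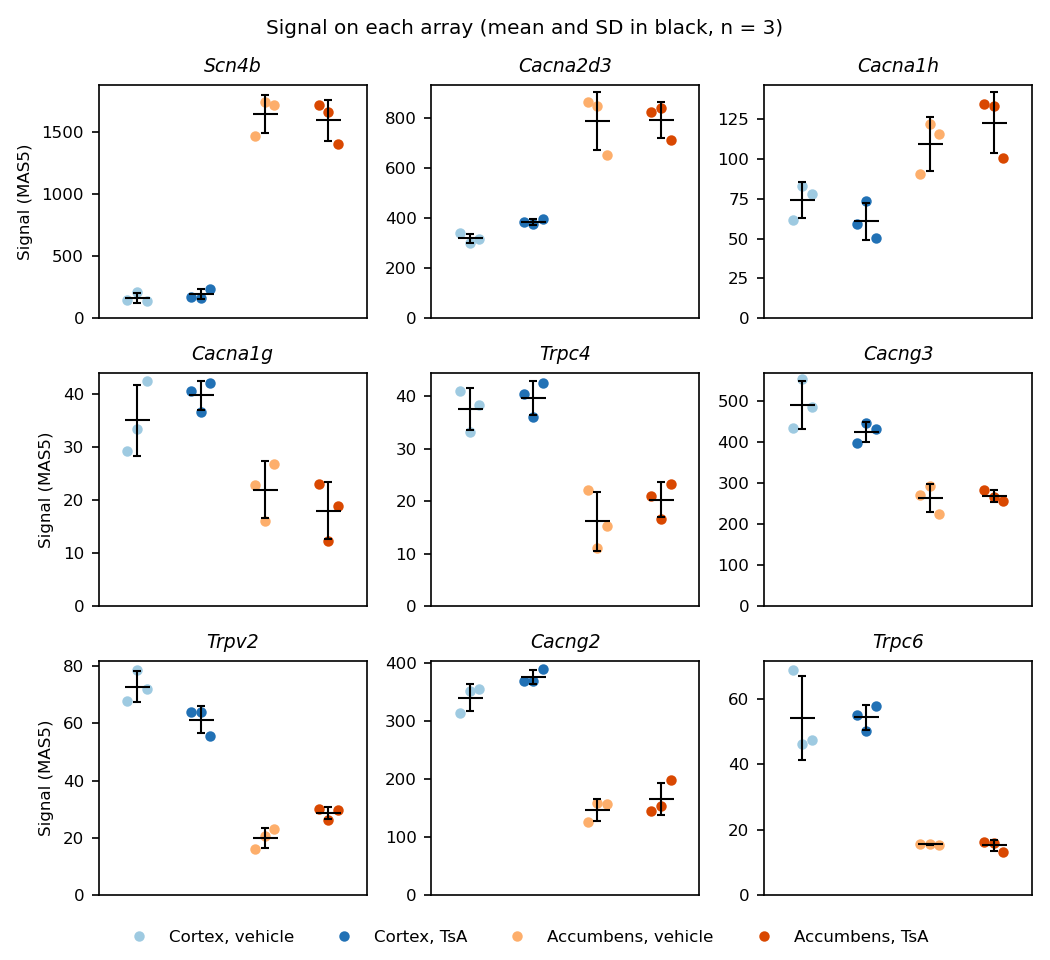
Signal on each of the 12 arrays for the 9 channel genes that passed between the structures with a log2 difference of at least 0.5, coloured by structure and treatment, with the mean and SD of each group of 3 in black. Each panel has its own linear axis from 0. In every panel the cortex arrays and the accumbens arrays do not overlap, and Scn4b has the widest gap, from 237 to 1402.

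The 21 genes below the filter had mean signals of at most 19.6 in either structure. When they were included, 3 of them passed between the structures, Cacng4 (0.31, higher), Scn10a (0.25, higher) and Trpm4 (-0.44, lower), so that 23 of the 55 genes passed beside 31.0% of all 31042 probe sets. Trpm4, a calcium-activated cation channel, was 13.3 to 23.4 on the cortex arrays and 4.24 to 11.6 on the accumbens arrays.

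Wash batch and structure were partly confounded, and the calls shrank when batch was taken into account. Only batch 2 held both structures, so the block and the batch 2 fit draw on the same 4 arrays and are not separate checks. The block also uses the TsA differences within batches 1 and 3. There, cortex TsA array 1 and accumbens vehicle array 3 each stood alone for their group. With the wash batch as a block 14 of the tested genes passed (22.5% of all probe sets did), and within batch 2 alone 12 passed (22.7% of all probe sets). Of the 20 calls, 11 were shared with the block and 12 with batch 2. There were 10 genes that passed in all of these fits: Scn4b, Cacna2d3 and Scn3a were higher in the accumbens, and Trpc6, Cacng2, Trpv2, Cacng3, Cacna1g, Cacnb3 and Cacna1a were lower. Leaving out any 1 array gave 18 to 21 passing genes, and 18 of the 20 calls were kept whichever array was left out. The exceptions were Cacna1a and Cacnb1.

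The structures were also compared within each treatment, with 3 arrays against 3. Among vehicle arrays 14 of the 34 tested genes passed, 6 higher and 8 lower in the accumbens, beside 34.5% of all probe sets. Among TsA arrays 16 passed, 7 higher and 9 lower, beside 28.3%. The comparisons use different arrays but share 1 estimate of the spread. The arrays of the structures did not overlap for 14 tested genes with vehicle (40.5% of all probe sets) and for 23 with TsA (49.2%), of which 10 were higher (28.0%) and 13 lower (21.2%). There were 12 genes that passed in both with the same direction, 4 higher and 8 lower. Scn4b was higher by 3.22 among vehicle and by 2.96 among TsA arrays, Cacna2d3 by 1.25 and 1.01. Trpc6 gave -1.14 and -1.18, Cacng2 -1.14 and -1.12, and Trpv2 -1.31 and -0.79. Scn3a and Scn3b passed only among vehicle arrays, and Scn2a, Scn2b, Cacng8 and Trpc2 only among TsA arrays, but the test of the difference between treatments passed for 0 of the 34 in limma, with a smallest adjusted p of 0.840 (662 of all probe sets had an unadjusted p under 0.05). Without cortex vehicle array 3 the vehicle comparison gave 9 passing genes in place of 14, and with the wash block it gave 7 (14.9% of all probe sets), while the TsA comparison gave 8 with the block (14.1%).

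TsA was compared with vehicle in each structure, which is the treatment comparison the design text names. In neither structure did any channel gene pass. In the cortex limma called 0 of the 34 genes and 0.0% of all probe sets, with a smallest adjusted p of 0.751, and 2 of the genes had an unadjusted p under 0.05 (851 of 18625 probe sets did). In the accumbens it called 0 of the genes and 0.0% of all probe sets, with a smallest adjusted p of 1.0, and 1 gene had an unadjusted p under 0.05 (408 of all probe sets). Averaged over the structures, 0 of the genes passed and 0.0% of all probe sets (515 with an unadjusted p under 0.05). The median difference of the tested genes was 0.06 in the cortex and -0.02 in the accumbens, beside -0.02 and 0.01 for all probe sets.

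The arrays of the treatments did not overlap in the cortex for 6 of the tested genes (17.6%, beside 12.4% of all probe sets), 3 of them higher (3.89% of all probe sets) and 3 lower with TsA (8.47%). In the accumbens this held for 2 (5.88%, beside 5.48%), both higher (3.01% of all probe sets) and none lower (2.46%). The cortex genes were Cacna2d3, Scn3b and Cacng2 among the higher and Trpv2, Hcn3 and Trpc2 among the lower, and the accumbens genes were Trpv2 and Cacna1c. As values only, Cacna2d3 lay between 302 and 340 with vehicle and between 375 and 399 with TsA in the cortex, a log2 difference of 0.26 ± 0.11 (SE), and was 788 ± 117 (SD, n = 3) and 793 ± 71.0 in the accumbens. Scn3b went from 716 ± 16.2 to 791 ± 3.46 in the cortex (0.14 ± 0.08), and was 930 ± 65.8 and 886 ± 47.9 in the accumbens. Hcn3 went from 28.6 ± 6.83 to 21.8 ± 0.523 in the cortex (-0.23 ± 0.12).

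Trpv2 had TsA differences of opposite sign in the structures. Cortex arrays averaged 72.9 ± 5.53 (SD, n = 3) with vehicle and 61.3 ± 4.79 with TsA, while accumbens arrays averaged 19.8 ± 3.40 and 28.6 ± 2.05. The TsA difference was -0.20 ± 0.11 for the cortex but 0.32 ± 0.11 for the accumbens, and the difference between these was 0.52 ± 0.15, with an adjusted p of 0.840 from limma (unadjusted p = 0.00394). The difference between structures was larger in size for Scn1a (-0.88 ± 0.50), Trpm7 (-0.81 ± 0.44), Cacnb4 (-0.78 ± 0.45) and Cacna2d1 (-0.52 ± 0.35), with unadjusted p of 0.0891 to 0.160, and none of these passed. With the wash batch as a block the TsA difference of Trpv2 was -0.15 in the cortex and 0.20 in the accumbens, and in the cortex that of Cacna2d3 was 0.26, of Scn3b 0.14 and of Hcn3 -0.22. Each of these rests on a single array of one treatment, because batches 1 and 3 are the ones that hold both treatments of a structure. Among the dim genes, Cacng5 and Cacng1 were higher and Scn10a and Cacng7 lower in the cortex without overlap, with means of at most 19.6, and Trpv4 was higher in the accumbens with means of at most 2.43.

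**Figure D3:**
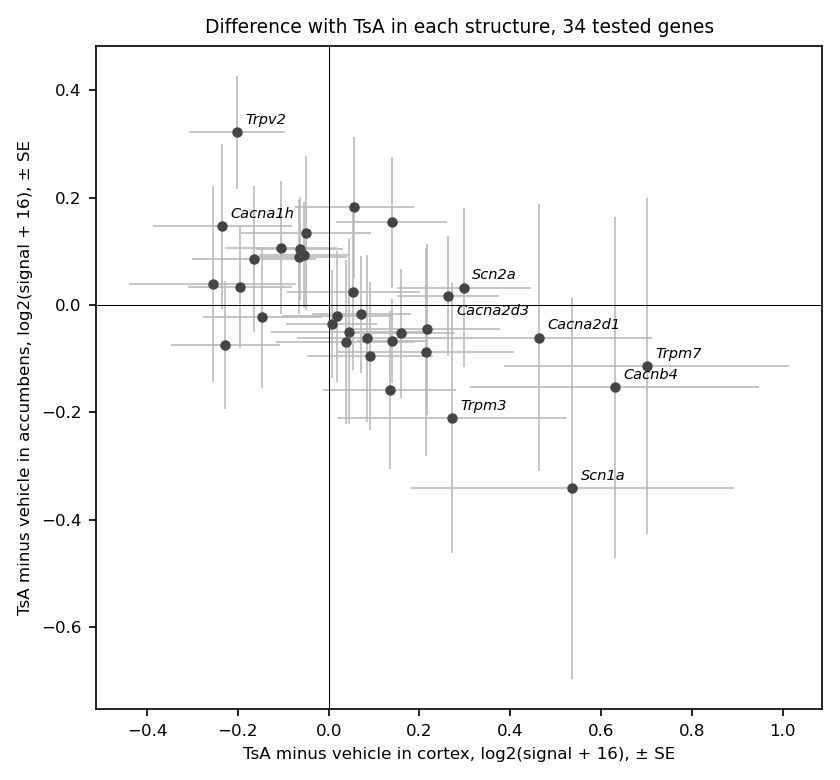
TsA minus vehicle in the cortex (horizontal) and in the accumbens (vertical) for the 34 tested channel genes, on the log2(signal + 16) scale with standard errors (3 arrays in each group). No gene passed in either structure; Trpm7, Cacnb4, Scn1a and Cacna2d1 lie farthest right with wide errors, and Trpv2 is the highest point, at -0.20 in the cortex and 0.32 in the accumbens.

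The points with the largest TsA differences in the cortex were the genes whose arrays of 1 group disagreed most. Trpm7 gave 0.70 (unadjusted p = 0.0436), Cacnb4 0.63, Scn1a 0.54 and Cacna2d1 0.46, and in all of them the treatments overlapped. The pooled SD of log2(signal + 16) between arrays of a group was 0.54 for Scn1a, 0.48 for Cacnb4, 0.47 for Trpm7 and 0.37 each for Cacna2d1 and Trpm3, beside a median of 0.17 over the tested channel genes and 0.16 over all probe sets tested. Scn1a was above 99.1% of all probe sets in this spread.

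Outside the accumbens TsA group, many of these genes were high or low on the same arrays. Of the 7 channel genes with the widest spread, 6 were highest in cortex vehicle array 1 and 5 in accumbens vehicle array 1, 7 were lowest in cortex TsA array 2 and 7 in accumbens vehicle array 3. On accumbens TsA arrays 1, 2 and 3, 1, 2 and 4 of them were highest and 4, 1 and 2 lowest. Of all 34 tested genes, 13 were highest and 15 lowest in cortex vehicle array 1, and 12 were highest in accumbens vehicle array 1. Lowest were 15 in cortex TsA array 2 and 19 in accumbens vehicle array 3. Such counts were not made over all probe sets. Over all tested probe sets, deviations of cortex vehicle array 1 from its group mean correlated at 0.663 with those of accumbens vehicle array 1. With those of accumbens vehicle arrays 2 and 3 the correlations were -0.03 and -0.621. The part of such deviations in the channel counts was not tested. Scn1a was 249, 110 and 140 on the cortex vehicle arrays and 265, 132 and 83.5 on the accumbens vehicle arrays. Cacnb4 was 39.2, 10.5 and 16.9, and 63.6, 41.7 and 15.4. Cortex vehicle array 1 and cortex vehicle array 2, on which 5 of the 7 genes were lowest in their group, were washed in the same batch. Accumbens vehicle array 3 was washed in batch 3, and arrays 1 and 2 of its group in batch 2. Cortex TsA arrays 2 and 3 were washed in batch 2, and array 1 of their group in batch 1. The 3′ to 5′ signal ratio of the Gapdh control lay between 1.12 and 1.25 on all arrays, that of Actb between 1.96 and 2.38 and that of Hk1 between 1.71 and 2.26. The part of the wash batch and of these ratios in the spread was not tested.

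**Figure D4:**
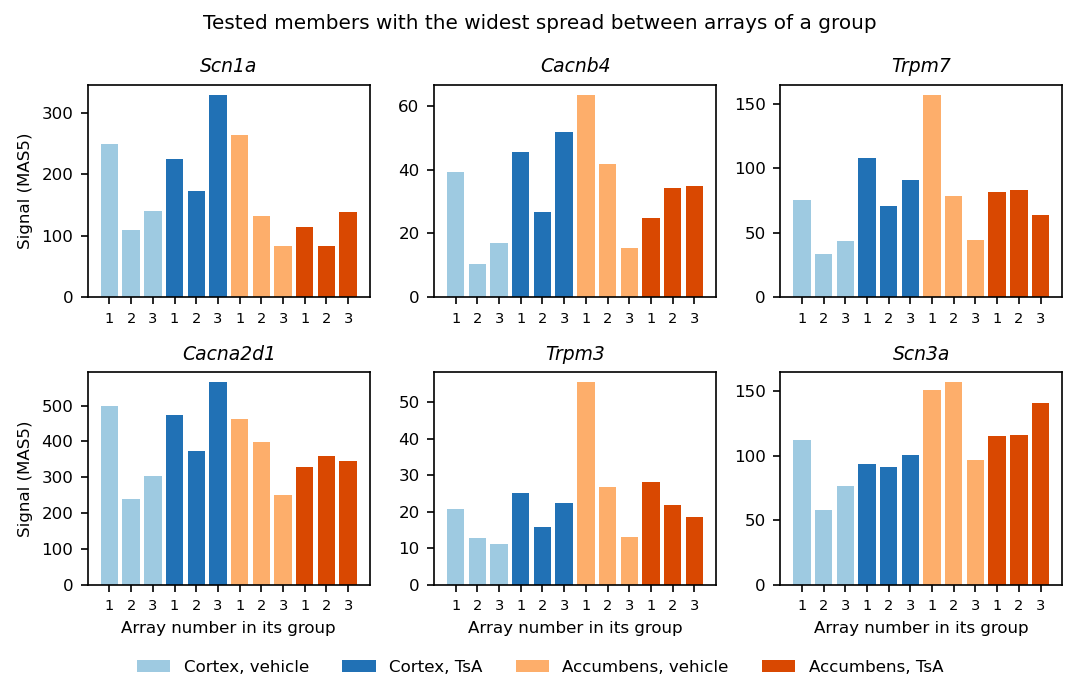
Signal of the 6 tested channel genes with the widest spread between arrays of a group, as bars from 0 for each array, numbered within its group of 3. Array 1 is the highest of the cortex vehicle group in all 6 panels, and array 3 the lowest of the accumbens vehicle group.

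Genes listed as partners or relatives of these channels are given as counts, and binding of their products was not tested. Of 12 tested partners of sodium channels, 5 were higher and 3 lower in the accumbens, beside 44.8% of all probe sets called in either direction. Nfasc, which has a product at the axon initial segment, was higher by 1.00 ± 0.10 (from 197 ± 23.2 in the cortex to 411 ± 55.4, SD, n = 6). The cell type that carries the Nfasc signal was not tested. Ank3, the ankyrin of that segment, was higher by 0.53 and Unc79, a subunit of the sodium leak channel complex, by 0.47. The fibroblast growth factor homologue genes Fgf13 and Fgf12, whose products bind sodium channel tails, gave -0.59 and -0.54, and Ank2 gave -0.42. The list's median was 0.23. With the wash block 5 were higher and 1 lower (22.5% of all probe sets were called). Of the genes named, Unc79 (0.36, adjusted p = 0.0866 from limma) and Ank2 (-0.14, adjusted p = 0.645) no longer passed, and Fgf12 turned to 0.04. Within batch 2 Unc79 passed (0.65, adjusted p = 0.0127 from limma), while Ank2 (-0.30) and Fgf12 (-0.47) did not.

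Of 14 tested calcium channel partners, 3 were higher and 6 lower (44.8% of all probe sets were called), with a median of -0.22. Rem2, a small GTPase that inhibits calcium channels, was higher by 2.75 ± 0.10 (27.6 ± 5.23 on cortex and 277 ± 26.6 on accumbens arrays, SD, n = 6, adjusted p = 1.79e-10 from limma). Akap5, an anchoring protein for kinase A, was higher by 1.54 ± 0.24 and Rims2, of the presynaptic active zone, by 0.36 ± 0.09. Stac2, an adaptor of L-type channels, gave -1.94 ± 0.18, Cabp1, a calmodulin-like calcium sensor, -1.43 ± 0.10, and Rimbp2, which links the active zone to presynaptic channels, -1.25 ± 0.07. With the wash block 3 were higher and 4 lower (22.5% of all probe sets), and Rem2 was 2.52 and Stac2 -2.48. Within batch 2, 2 were higher and 5 lower (22.7% of all probe sets), and Rims2 did not pass (0.37).

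Of 4 tested genes in the HCN partner list, 1 passed (44.8% of all probe sets were called), and the list median was 0.01. This was Kctd12 (0.39 ± 0.07, higher), whose link to HCN channels was not tested. Kctd12 passed with the wash block too (0.62) and did not within batch 2 (0.41). Of 6 tested genes of the wider TRP group, 1 passed (44.8% of all probe sets were called), and the median was 0.07. This was Trps1 (0.90 ± 0.16, higher), which encodes a transcription factor in spite of its name. It also passed with the block (1.28). Of 21 tested genes of intracellular calcium release, store entry and calcium pumps, 6 were higher and 5 lower (44.8% of all probe sets were called in either direction), with a median of 0.05 between members of both directions. The ryanodine receptor genes parted, Ryr3 higher by 1.84 ± 0.14 and Ryr2 at -0.93 ± 0.11, as did the plasma membrane pump genes, Atp2b1 at 0.35 ± 0.11 against Atp2b4 at -0.97 ± 0.11 and Atp2b2 at -0.48 ± 0.07, and Homer3 was higher by 0.45 ± 0.10. With the wash block 1 of these 21 was higher, Ryr3 at 2.35, and 5 were lower (22.5% of all probe sets), while Homer3 (0.32, adjusted p = 0.336 from limma) and Atp2b1 (0.60, adjusted p = 0.0723) did not pass. In the TsA comparisons 0 genes of any of these 5 lists passed in either structure.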

How the data were processed

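The authors deposited 1 linear intensity for each probe set and array, a MAS5 signal from GCOS 1.4 per the submitters' processing notes, on Affymetrix Rat Genome 230 arrays. Its 2% trimmed mean was the same on every array, so no further scaling was applied. Probe-level files and present or absent calls are not analysed here. Run records served only to find the wash batches.

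Of 31099 probe sets, 57 controls were left out. GEO's platform annotation gave 1 symbol to 20826, several to 436 and none to 9780. The Entrez gene IDs of 20758 were found in the RefSeq gene table (GRCr8), and 0 symbols changed. The lowest 40% by mean signal were left out, and 18625 probe sets were tested as log2(signal + 16). A mean for each of 4 groups was fitted with limma 3.58.1 in R 4.3.3 (lmFit, contrasts.fit, eBayes with a trend, 8 residual degrees of freedom), two-sided, with Benjamini-Hochberg adjustment over all 18625 and a threshold of 0.05. The model was tested on simulated data. Probe sets below the filter were read from a fit without it. The number of arrays, 3 pools of 2 rats a group, limits the precision. Nothing in the labels says more of how pools were separated, so the p-values measure the spread between these pools.

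Members and lists were chosen with earlier results of these data known. Every member may be named, with values by array for those that passed between the structures with a log2 difference of at least 0.5 and for the highest and lowest of each family. In the TsA comparisons up to 4 higher and 4 lower without overlap are named, and from each list up to 3 a direction. Cacng2 and Trpc2 in the TsA comparison were named after their values were seen, to complete a count. Alternatives were constants of 1 and 64, no filter, quantile normalization, median centring, blocks for wash batch and replicate number, batch 2 alone, other probe sets and each array left out. Tables and figures used Python 3.11.15, numpy 2.4.6, pandas 2.3.3 and matplotlib 3.10.9.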

Additional observations from a re-analysis of the deposited data

Results flagged for a closer look

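Trpv2 is listed because its arrays lay on opposite sides in the structures, although the test of that difference did not pass. The TsA difference in the accumbens minus that in the cortex was 0.5236 on the log2(signal + 16) scale, with an unadjusted p of 0.00394 and an adjusted p of 0.840 from limma's interaction term over all probe sets. All 3 cortex TsA arrays were below all 3 cortex vehicle arrays (55.8 to 64.1 against 67.8 to 78.8), and all 3 accumbens TsA arrays were above all 3 accumbens vehicle arrays (26.3 to 29.9 against 16.1 to 22.8). With the wash batch as a block the value was 0.35.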

How the results depend on the processing

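In the comparison of the structures over both treatments, constants of 1 and 64 and median centring each gave 20 passing genes, and quantile normalization 23. Of the 18625 probe sets, 8237 were called after median centring and 8169 after quantile normalization, in place of 8349. Under median centring 44.0% of all probe sets called were higher in the accumbens in place of 54.5%, and 45.0% of the channel genes called. Within wash batch 2 alone 12 genes passed, from 4 arrays. With the wash block 7 passed among vehicle arrays in place of 14, and 8 among TsA arrays in place of 16. Leaving out 1 array gave 18 to 21 genes over both treatments, 9 to 17 among vehicle arrays (9 without cortex vehicle array 3, 10 without accumbens vehicle array 2), 14 to 19 among TsA arrays, and 0 in each TsA comparison and the interaction. Among genes that passed, values of other sign came from other probe sets of Cacna1a (0.0367, 0.0271 and 0.1597) and Cacna1h (-0.0601 over both treatments, -0.0057 with vehicle, -0.1145 with TsA), and Cacnb1 with the wash block (-0.0877). Genes that did not pass changed sign as well, such as Scn1a (0.08), Cacna2d1 (0.37) and Trpv5 (0.13) with the wash block and Hcn3 (0.01) within batch 2. Quantile normalization added Hcn3, Scn8a and Trpv5, and median centring added Scn8a and lost Cacnb1. The cause was not tested.

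The labels do not say that replicate numbers pair the arrays. Deviations of same-numbered cortex and accumbens arrays correlated at 0.076 to 0.663 with vehicle and 0.031 to 0.163 with TsA; not every pair was over 0.1, so the arrays were treated as unpaired, and pairing was not settled. With the replicate number as a block 21 genes passed over both treatments, 14 among vehicle and 18 among TsA arrays, and 0 in the TsA comparisons and the interaction. A block for number within treatment gave 22, 15 and 19. Without a block 20, 14 and 16 passed, beside 44.8%, 34.5% and 28.3% of all probe sets. Over both treatments Scn1a passed under both blocks (-0.55, adjusted p = 0.0498 and 0.00191 from limma) and Trpm3 under the second (0.31, adjusted p = 0.0410), and among vehicle arrays Cacna1b passed under neither (-0.34, adjusted p = 0.0519 and 0.0618). The second block gives no value for the TsA comparisons. Genes near the 17.4 limit, such as Trpc6 in the accumbens, have fold changes limited by low signal.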
